A study of Mus musculus with 4 samples.

Results

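Autophagy is the pathway by which a cell encloses part of its cytoplasm in a double membrane, the autophagosome, and delivers it to the lysosome for breakdown. The 38 genes described here encode its initiation, nucleation and conjugation machinery, its cargo receptors and part of the lysosome. They were chosen by symbol, and all 38 were found among the 43346 gene identifiers of each file and passed the filter on low counts. The series measured RNA from hearts of mice on postnatal day 0, in 2 wild type libraries on an ICR background and 2 libraries labelled MRTFA/B double knockout on a mixed background. MRTFA and MRTFB are myocardin-related coactivators of serum response factor. Strain background follows genotype in all 4 libraries, so the effects of the genotype and of the background cannot be told apart. The labels name no sex, promoter, Cre line or cell type for the deletion, and leave unsaid whether each library is a single animal or a pool. The p-values below therefore measure the spread between libraries, which may be technical.

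Autophagy starts when the ULK1 kinase complex, held in check by mTORC1 in fed cells and activated by AMPK, switches on a class III PI3-kinase complex that marks the site of the new membrane. Ubiquitin-like conjugation then attaches the Atg8 proteins (the LC3 and GABARAP families) to that membrane, and receptors that bind Atg8 proteins bring in the cargo. In newborn mice autophagy is known to be induced when the placental supply of nutrients ends. In heart muscle it clears mitochondria and protein aggregates, and the transcription factor TFEB can raise many lysosome and autophagy genes together.

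Library totals lay between 16175259 (double knockout library 2) and 29460641 counts, and the fit covered 16009 genes. Levels are in CPM, counts scaled to library size with the TMM adjustment for composition. Each log2 fold change is from the edgeR fit and sets double knockout over wild type. Its standard error (SE) was derived as the absolute log2 fold change divided by the square root of edgeR's quasi-likelihood F statistic. As a check of the labels, Mrtfa had 9.06 and 11.1 CPM in wild type, against 3.35 and 2.26 CPM in double knockout (log2 fold change -1.82, SE 0.26; edgeR adjusted p = 0.120). The nearest of the 38 genes to either targeted gene is Atg101, 20.1 Mb from Mrtfa. Mrtfb had 46.9 and 56.8 CPM in wild type, against 46.0 and 49.6 CPM in double knockout, and a count over all exons does not test for a partial deletion. The 12 cardiomyocyte markers summed to 53085 to 60267 CPM in each library, so the tissue label holds. The first principal component, with 57.5% of the variance, placed the wild type libraries at -32.3 and -27.4 and the double knockout libraries at 11.6 and 48.1. It separated the groups, but the double knockout libraries were also far apart on it. They lay at opposite ends of the next component, with 30.4%.

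Most of the autophagy and lysosome genes were read at higher levels in the double knockout hearts, led by Gabarapl1, Sqstm1 and Bnip3 at about a doubling of the wild type mean. All 5 genes of the ULK1 complex, all 5 Atg8 genes and all 3 mitophagy genes had both double knockout libraries above both wild type libraries. Of all genes tested, 25.8% did. For 15 of the 38 genes the double knockout pair was not above the wild type pair. The groups overlapped for Becn1, Uvrag, Atg9a, Wipi1, Optn, 3 Atg4 proteases and 4 conjugation enzymes. Atg4c, Tfeb and Lamp1 were lower in both double knockout libraries. Of the 38 genes, 31 had a positive log2 fold change (81.6%, against 51.3% of all genes tested), and the median was 0.24, against 0.01 over all genes. The fold changes ran from -0.42 for Atg4c to 1.12 for Gabarapl1.

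With edgeR's quasi-likelihood test and Benjamini-Hochberg adjustment over all genes, 0 of the 38 genes passed an adjusted p of 0.05, where 0.0750% of all genes did. The lowest adjusted p was 0.121, for Bnip3l. At an unadjusted p under 0.05 there were 15 higher genes (39.5%, against 8.70% of all genes) and 0 lower genes (8.63% of all genes). With limma-voom 0 passed, of a background of 0.0687%. DESeq2 called 6 higher, namely Atg13, Bnip3, Bnip3l, Gabarapl1, Map1lc3b and Sqstm1 (15.8%, against 2.08% of all genes), and 0 lower (1.86% of all genes). The double knockout pair was above the wild type pair, with no overlap, for 23 genes (60.5%, against 25.8% of all genes) and below it for 3 genes, Atg4c, Tfeb and Lamp1 (25.2% of all genes). The genes were listed with earlier results of these data known, so their counts stand beside the background as a description.

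The edgeR count depended on the libraries. Without double knockout library 1 it was 15 genes, 14 higher and Atg4c lower, where 17.1% of all genes were called. Without double knockout library 2 it was 9 genes, all higher, where 8.24% of all genes were called. Without wild type library 1 or 2 it was 0 in each case (0.0121% and 0.0180% of all genes). With 1 library left in a group, the fit takes it to vary like the other group. With no filter on low counts it was 11 genes, where 6.07% of the larger set of genes were called. The double knockout libraries also differed from each other: library 2 lay above library 1 for 25 of the 38 genes (65.8%, against 49.9% of all genes). The cause of this difference was not tested. Relative to the wild type mean, the median of the 38 genes was 0.23 in double knockout library 1 and 0.31 in library 2 on the log2 scale, and -0.03 and 0.03 in the wild type libraries.

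**Figure D1:**
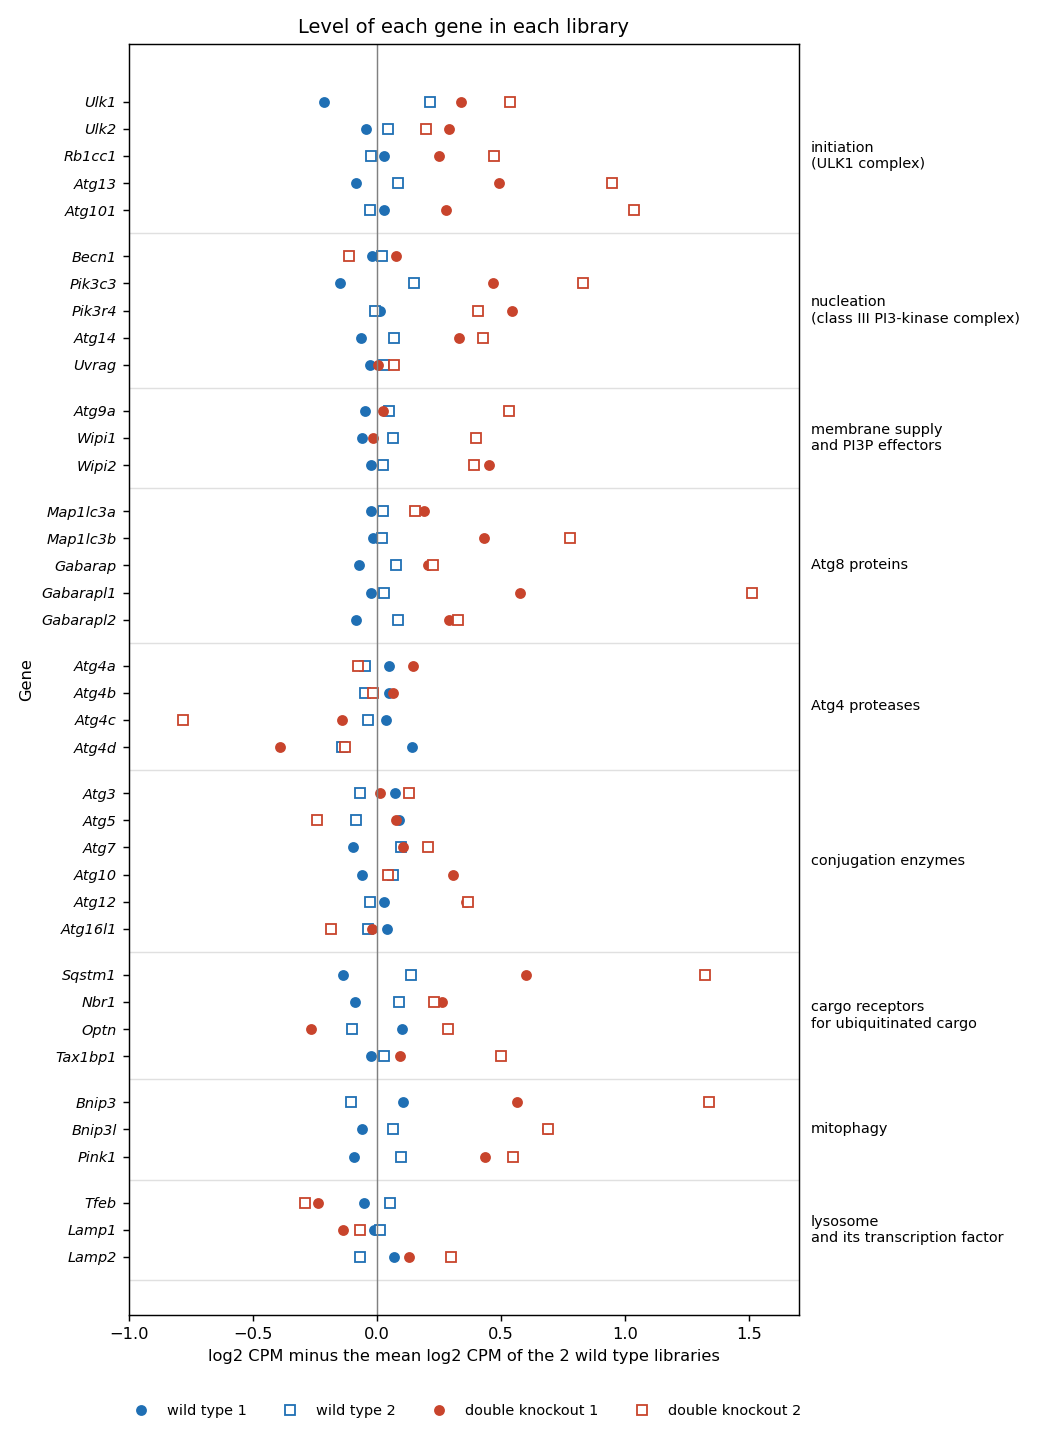
Log2 CPM of each of the 38 genes in each library, minus the mean of the 2 wild type libraries, grouped by role; circles are library 1 and squares library 2 of wild type (blue) and double knockout (red). Both red points lie right of both blue points for 23 genes, and double knockout library 2 is the highest point for Gabarapl1, Sqstm1 and Bnip3.

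Promoters were taken from RefSeq (GRCm38.p6, the assembly of mm10) as the 250 bases before to 50 bases after a gene's start, and 31 of the 38 genes were matched, with 37 promoters. They were searched on both strands for CACGTG (the E-box core of the CLEAR element bound by TFEB), GTAAACA (bound by FoxO factors), the CArG box (bound by serum response factor), TGACNNNGC (the core of the antioxidant response element) and TACGTG (a form of the hypoxia response element). CACGTG reads the same on both strands and was counted once. It shares the letters ACGTG with TACGTG, the only form of the hypoxia response element searched. A match therefore does not show which factor binds. No gene of the 38 had matches to more than 1 of the 5 motifs. In the sequences below, printed 5′ to 3′ on the gene's own strand, capitals mark a match, and base -1 is the last base before the start.

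The ULK1 complex receives the signal that starts autophagy. Atg13, the adaptor that links the ULK1 kinase to its scaffold, was read at 49.7 and 55.9 CPM in wild type, against 74.1 and 102 CPM in double knockout. Both double knockout libraries exceeded both wild type libraries, and library 2 was the higher. Its log2 fold change was 0.73 (SE 0.17; edgeR adjusted p = 0.159; DESeq2 adjusted p = 0.0273). Rb1cc1, the scaffold FIP200, stood at 135 and 129.9 CPM in the wild type pair and 157 and 184 CPM in the double knockout pair (log2 fold change 0.36, SE 0.12; edgeR adjusted p = 0.221). Atg101, which stabilises ATG13, had 14.2 and 13.7 CPM in the wild type hearts and 16.9 and 28.7 CPM in the double knockouts. Most of that difference lay in double knockout library 2, and the log2 fold change was 0.70 (SE 0.26; edgeR adjusted p = 0.263), or 0.28 without that library. Ulk1, the kinase itself, was read at 39.3 and 52.8 CPM in wild type, against 57.6 and 66.0 CPM in double knockout. Its wild type libraries were further apart than its double knockout libraries, and the log2 fold change was 0.42 (SE 0.17; edgeR adjusted p = 0.283). Ulk2, the related kinase, had 103 and 110.2 CPM in the wild type libraries, then 131 and 122 CPM in double knockout (log2 fold change 0.24, SE 0.10; edgeR adjusted p = 0.309). It was the more abundant per exon length in wild type, at 17.9 CPM per kb against 7.10 for Ulk1. The median over the 5 genes was 0.42. At an unadjusted p under 0.05, 4 were higher (80%, against 8.70% of all genes). DESeq2 called 1 higher (2.08% of all genes).

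The class III PI3-kinase complex makes the lipid PI3P on the forming membrane. Pik3c3, its catalytic subunit VPS34, stood at 24.7 and 30.4 CPM in the wild type pair and 37.9 and 48.8 CPM in the double knockout pair. Pik3r4, its regulatory subunit VPS15, had 29.2 and 28.8 CPM in the wild type hearts and 42.4 and 38.5 CPM in the double knockouts. The groups did not overlap for either gene. The log2 fold changes were 0.65 (SE 0.18; edgeR adjusted p = 0.181) for Pik3c3 and 0.48 (SE 0.12; edgeR adjusted p = 0.166) for Pik3r4. Atg14, the subunit that directs the complex to autophagosome formation, was read at 15.8 and 17.3 CPM in wild type, against 20.7 and 22.2 CPM in double knockout (log2 fold change 0.38, SE 0.14; edgeR adjusted p = 0.252). Becn1, encoding beclin 1, the core subunit shared by the complexes, stood apart from these. It stood at 40.5 and 41.6 CPM in the wild type pair and 43.2 and 38.0 CPM in the double knockout pair, and the groups overlapped. The log2 fold change was -0.01 (SE 0.12; edgeR adjusted p = 0.966). Uvrag, the subunit of the complex that acts on endosomes and late autophagosomes, was between 37.7 and 40.3 CPM in every library (log2 fold change 0.04, SE 0.11), with an antisense gene, Gm45187, over 17.6% of its exon bases. Exons of Cntd1 on the opposite strand cover 43.9% of the Becn1 exon bases. The strand setting of the counting is not stated in the sources used here.

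Atg9a, a lipid scramblase carried on vesicles that seed the membrane, and the PI3P-binding proteins Wipi1 and Wipi2 act next. Wipi2, which recruits the conjugation machinery, had 64.0 and 66.3 CPM in the wild type hearts and 89.2 and 85.3 CPM in the double knockouts. Its groups were well separated, at a log2 fold change of 0.42 with SE 0.10 (edgeR adjusted p = 0.159). Atg9a had 27.3 and 29.2 CPM in the wild type libraries, then 28.6 and 40.9 CPM in double knockout (log2 fold change 0.30, SE 0.19). Wipi1 had 66.5 and 72.5 CPM, then 68.5 and 91.5 CPM (log2 fold change 0.20, SE 0.16). For both, double knockout library 1 lay within the wild type range and library 2 above it. Gm29253, a non-coding gene on the same strand, shares 31.8% of the Atg9a exon bases and had 0 counts in all 4 libraries.

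Atg8 proteins decorate the autophagosome and are the docking points for receptors. Gabarapl1, a GABARAP-family member, was read at 29.6 and 30.8 CPM in wild type, against 45.0 and 86.3 CPM in double knockout. Both double knockout libraries were above wild type, but library 2 was nearly double library 1. The log2 fold change was 1.12 (SE 0.32; edgeR adjusted p = 0.203; DESeq2 adjusted p = 0.0128), and 0.57 without double knockout library 2. Map1lc3b, encoding LC3B, the protein most often used to mark autophagosomes, stood at 69.1 and 71.0 CPM in the wild type pair and 94.5 and 120.0 CPM in the double knockout pair. The wild type libraries nearly coincided, and both double knockout libraries lay well above them. Its log2 fold change was 0.61 (SE 0.14; edgeR adjusted p = 0.156; DESeq2 adjusted p = 0.0391). The other Atg8 genes lay within narrower limits. Map1lc3a, another LC3 gene, had 51.2 and 52.9 CPM in the wild type libraries, then 59.2 and 57.8 CPM in double knockout. Gabarap had 88.4 and 98.0 CPM, then 107 and 109 CPM. Gabarapl2 had 12.2 and 13.7 CPM, then 15.8 and 16.2 CPM. These 3 had groups that did not overlap and smaller log2 fold changes of 0.17 (SE 0.10), 0.21 (SE 0.11) and 0.31 (SE 0.15), with unadjusted p above 0.05. Per exon length, Gabarap and Map1lc3a were the most abundant Atg8 genes in wild type, at 50.5 and 44.1 CPM per kb. Gabarapl1 came nearest to them in double knockout, going from 15.01 to 32.6 CPM per kb, while Map1lc3b went from 9.31 to 14.3 and Gabarapl2 from 5.55 to 6.86. Exon length here is the union of all annotated exons, which lowers the value of a gene with long alternative ends. Gabarapl2 is uncertain, since the pseudogene Gm5829 is 96.6% identical to it over 351 bases. The antisense gene 1700101I11Rik covers 28.3% of the Gabarapl1 exon bases and had 2, 3, 12 and 9 counts in wild type libraries 1 and 2 and double knockout libraries 1 and 2, against 841 counts for Gabarapl1 in wild type library 1. The Gabarapl1 promoter is shown because this gene had the largest fold change of the 38. It holds 0 matches to the motifs in the bases printed, from chr6:129532942-129533191 on the plus strand.
Gabarapl1: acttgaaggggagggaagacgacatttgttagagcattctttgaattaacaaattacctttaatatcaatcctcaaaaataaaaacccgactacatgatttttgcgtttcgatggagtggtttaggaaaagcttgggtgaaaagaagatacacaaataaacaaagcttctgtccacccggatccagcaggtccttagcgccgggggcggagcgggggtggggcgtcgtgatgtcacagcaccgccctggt

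The Atg4 proteases trim the Atg8 proteins before conjugation and release them afterwards, and as a group they had no positive shift. Atg4b, the most active of them on LC3, had 50.4 and 47.1 CPM in the wild type hearts and 50.9 and 48.1 CPM in the double knockouts, with overlapping groups (log2 fold change 0.03, SE 0.11). Atg4c was read at 14.6 and 13.8 CPM in wild type, against 12.8 and 8.20 CPM in double knockout. Both of its double knockout libraries lay below wild type, at a log2 fold change of -0.42 with SE 0.24 (edgeR adjusted p = 0.413). Without double knockout library 1 Atg4c had a log2 fold change of -0.79 and passed the threshold (edgeR adjusted p = 0.0129). Atg4d had 25.4 and 20.9 CPM in the wild type libraries, then 17.5 and 21.05 CPM in double knockout (log2 fold change -0.27, SE 0.17). Its groups overlapped, and Kri1 on the opposite strand covers 19.3% of its exon bases. Atg4a, on the X chromosome, was read at only 5.20 to 6.07 CPM over the 4 libraries, and it is uncertain because Atg4a-ps is 99.3% identical to it over 2115 bases. The median over the 4 genes was -0.12, and 0 reached an unadjusted p under 0.05 (8.70% of all genes were higher and 8.63% lower).

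Most conjugation enzymes differed little between the groups. Atg7, the activating enzyme for both conjugation reactions, stood at 19.0 and 21.7 CPM in the wild type pair and 21.8 and 23.4 CPM in the double knockout pair. Atg5, which is joined to ATG12, had 37.6 and 33.4 CPM in the wild type hearts and 37.3 and 29.98 CPM in the double knockouts. The 2 groups nearly touched for Atg7 and overlapped for Atg5, and the log2 fold changes were 0.15 (SE 0.14) and -0.07 (SE 0.15). Atg12 was the exception, at 43.1 and 41.4 CPM in wild type and at 54.3 and 54.6 CPM in double knockout. Its groups were well apart and its log2 fold change was 0.37 (SE 0.10; edgeR adjusted p = 0.192). Atg3, the conjugating enzyme for Atg8 proteins, had 38.0 and 34.4 CPM in the wild type libraries, then 36.5 and 39.5 CPM in double knockout (log2 fold change 0.07, SE 0.12). Atg10, the conjugating enzyme for ATG12, had 19.98 and 21.8 CPM, then 25.8 and 21.5 CPM (log2 fold change 0.18, SE 0.15). Atg16l1, which places the complex on the membrane, had 47.6 and 45.1 CPM, then 45.6 and 40.7 CPM (log2 fold change -0.10, SE 0.12). The groups overlapped for these 3. The median over the 6 genes was 0.11. Stretches of 3 of these promoters are shown because each carries the E-box core of the CLEAR element: Atg3 with 2 matches at chr16:45158719-45158778 (plus strand), Atg5 with 1 at chr10:44268279-44268338 (plus strand) and Atg7 with 1 at chr6:114670936-114670995 (plus strand).
Atg3: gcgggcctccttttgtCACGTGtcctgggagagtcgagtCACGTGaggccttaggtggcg
Atg5: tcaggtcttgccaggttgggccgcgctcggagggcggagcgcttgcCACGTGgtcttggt
Atg7: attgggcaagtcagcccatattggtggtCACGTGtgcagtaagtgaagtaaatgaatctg

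Receptors tie ubiquitinated cargo to Atg8 proteins. Sqstm1 (chromosome 11, 50199366 to 50210827, mm10), encoding p62, the receptor that is itself degraded by autophagy, was read at 148 and 179.9 CPM in wild type, against 248 and 408 CPM in double knockout. Both double knockout libraries were above both wild type libraries, with library 2 far above library 1. The log2 fold change was 1.0 (SE 0.26; edgeR adjusted p = 0.181; DESeq2 adjusted p = 0.00824), and 0.60 without double knockout library 2. Per exon length Sqstm1 went from 48.9 to 97.8 CPM per kb, second only to Lamp1 among the 38 genes in double knockout. The other receptors had smaller fold changes. Nbr1, which acts with p62, stood at 229 and 259 CPM in the wild type pair and 292 and 286 CPM in the double knockout pair (log2 fold change 0.24, SE 0.11). Tax1bp1, another ubiquitin-binding receptor (log2 fold change 0.31, SE 0.16), had double knockout library 2 at 314 CPM against 217 to 236 CPM in the other libraries. Optn, encoding optineurin, a receptor also used for damaged mitochondria, had 42.3 and 36.7 CPM in the wild type hearts and 32.7 and 48.1 CPM in the double knockouts (log2 fold change 0.03, SE 0.20), so its double knockout libraries lay on either side of wild type. The opposite-strand gene Mrnip covers 17.3% of the Sqstm1 exon bases and had 29 to 39 counts per library, against 4212 counts for Sqstm1 in wild type library 1. The Sqstm1 promoter is shown as that of the receptor with the largest change. It holds 0 matches in the bases printed, from chr11:50210821-50211070 on the minus strand.
Sqstm1: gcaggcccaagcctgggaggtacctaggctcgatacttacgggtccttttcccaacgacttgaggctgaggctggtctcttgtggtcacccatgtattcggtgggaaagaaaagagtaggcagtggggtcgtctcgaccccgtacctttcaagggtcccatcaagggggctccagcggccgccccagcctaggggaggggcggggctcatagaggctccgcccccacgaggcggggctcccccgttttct

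Mitophagy genes formed the role with the highest median log2 fold change, 0.69. All 3 were higher at an unadjusted p under 0.05, as were 8.70% of all genes. Bnip3l (chromosome 14, 66985239 to 67008877), encoding NIX, a receptor on the mitochondrial outer membrane, was read at 54.6 and 59.5 CPM in wild type, against 91.8 and 92.0 CPM in double knockout. The double knockout libraries coincided here, and Bnip3l had the lowest adjusted p of the 38 genes. Its log2 fold change was 0.69 (SE 0.10; edgeR adjusted p = 0.121; DESeq2 adjusted p = 0.00184). Bnip3, its hypoxia-responsive relative, stood at 36.2 and 31.3 CPM in the wild type pair and 49.8 and 85.4 CPM in the double knockout pair. Again both double knockout libraries were above wild type and library 2 was the higher, at a log2 fold change of 1.0 with SE 0.27 (edgeR adjusted p = 0.188; DESeq2 adjusted p = 0.0172), and 0.56 without that library. Pink1, the kinase that marks depolarised mitochondria, had 106 and 121 CPM in the wild type hearts and 153 and 165 CPM in the double knockouts (log2 fold change 0.49, SE 0.12; edgeR adjusted p = 0.159; DESeq2 adjusted p = 0.0671). An antisense gene, Gm45507, covers 22.3% of the Bnip3 exon bases. Bnip3 and Bnip3l have near copies, so the split of their reads is uncertain. The pseudogene Gm16439 is 98.9% identical to Bnip3 over 564 bases and had 124, 89, 175 and 195 counts in wild type libraries 1 and 2 and double knockout libraries 1 and 2. Bnip3l-ps is 99.2% identical to Bnip3l over 663 bases and had 183, 165, 277 and 182 counts in the same order. The Bnip3 promoter carries 1 E-box core, shown here from chr7:138909587-138909646 on the minus strand. It is shown because Bnip3 had the largest fold change among the genes with this motif. Forms of the hypoxia response element other than TACGTG were not searched for.
Bnip3: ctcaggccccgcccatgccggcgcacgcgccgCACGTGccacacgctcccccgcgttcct

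Of the lysosomal genes among the 38, the membrane proteins Lamp1 and Lamp2 differed in direction. Lamp1, the most abundant of the 38 genes per exon length at 117 CPM per kb in wild type, was read at 311 and 316 CPM in wild type, against 284 and 298 CPM in double knockout. Both double knockout libraries lay slightly below wild type, at a log2 fold change of -0.10 with SE 0.11 (edgeR adjusted p = 0.652). Lamp2, whose loss causes a cardiomyopathy with stalled autophagy in humans (Danon disease), stood at 312 and 283 CPM in the wild type pair and 325 and 366 CPM in the double knockout pair. Its log2 fold change was 0.21 (SE 0.12; edgeR adjusted p = 0.418), and its gene is on the X chromosome. Tfeb, the transcription factor of the lysosomal gene network, had 18.4 and 19.8 CPM in the wild type hearts and 16.2 and 15.5 CPM in the double knockouts. Both double knockout libraries were below wild type (log2 fold change -0.27, SE 0.14; edgeR adjusted p = 0.378). The Lamp1 promoter is shown because it holds 4 E-box cores within the last bases before the start, from chr8:13159081-13159160 on the plus strand.
Lamp1: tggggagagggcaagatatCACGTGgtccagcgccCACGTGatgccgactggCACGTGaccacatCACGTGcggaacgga

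**Figure D2:**
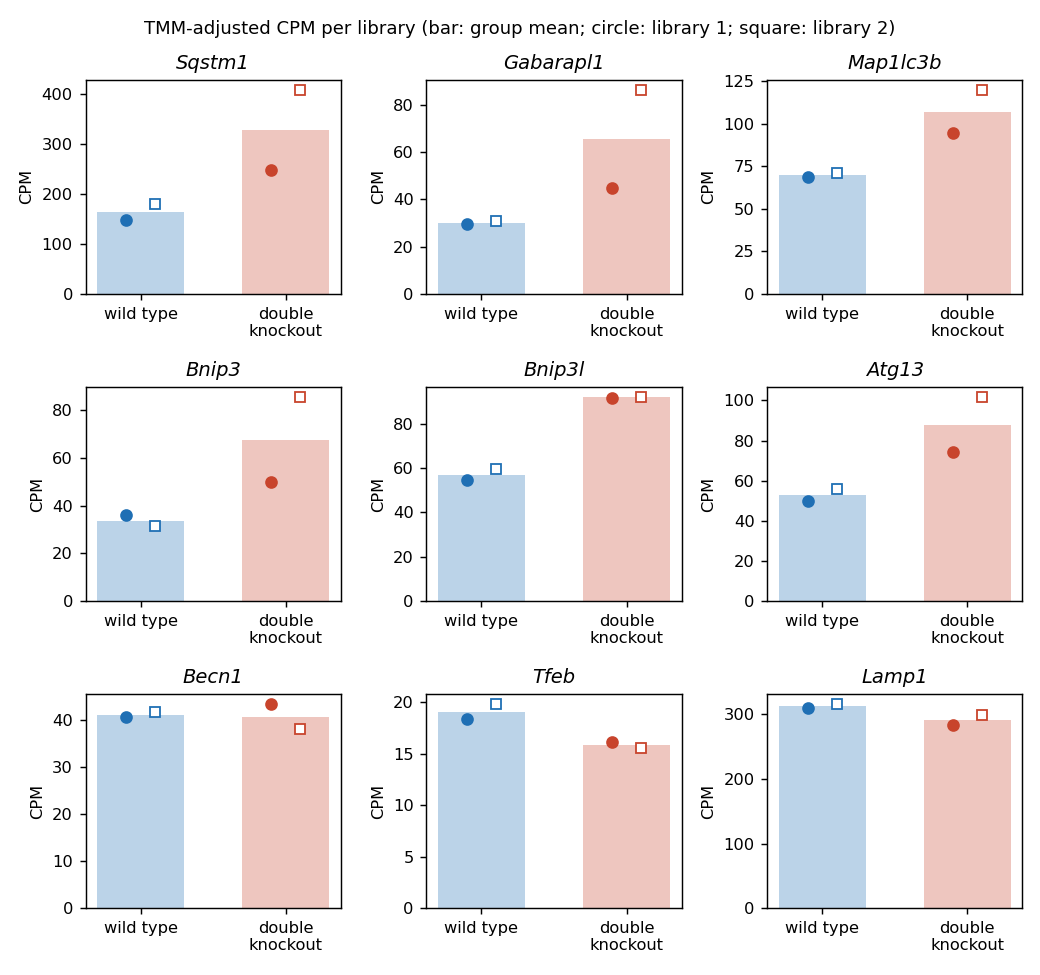
TMM-adjusted CPM in each library for the 6 genes that DESeq2 called higher and for Becn1, Tfeb and Lamp1; bars are group means, circles library 1 and squares library 2, and each axis starts at 0. Both double knockout points exceed both wild type points in the first 6 panels, while Becn1 overlaps and Tfeb and Lamp1 lie lower.

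**Figure D3:**
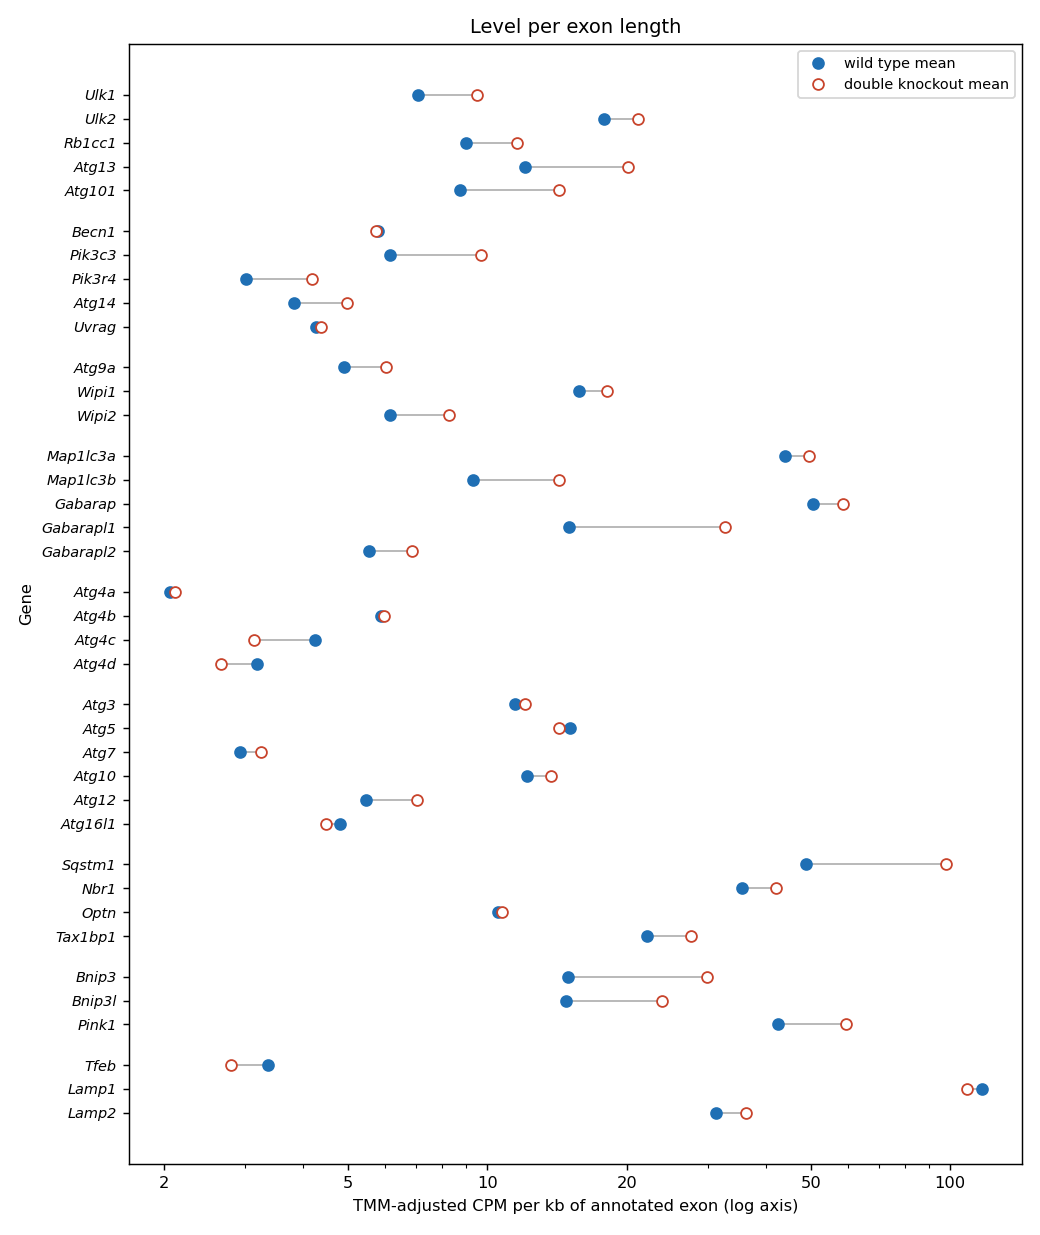
Group mean level of each gene in CPM per kb of annotated exon, on a log axis, in wild type (filled) and double knockout (open). Lamp1 is the highest gene in both groups, at 117 CPM per kb in wild type, and Sqstm1 moves from 48.9 to 97.8 CPM per kb.

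Motif matches were found in genes with large and with small fold changes. The E-box core CACGTG was found in promoters of 6 genes, Lamp1, Atg3, Atg5, Atg7, Atg14 and Bnip3, which is 6 of 37 promoters (16.2%, against 7.15% of all 32851 promoters in the table and 9.54% of the promoters of tested genes). The log2 fold changes of these genes spanned -0.10 for Lamp1 to 1.0 for Bnip3. TGACNNNGC was found in 4 promoters, those of Atg13, Tax1bp1, Map1lc3b and Ulk2 (10.8%, against 12.4% of all promoters). TACGTG was found in 4, those of Atg9a, Gabarapl2, Pik3r4 and Atg101 (10.8%, against 3.23%). GTAAACA and the CArG box were found in 0 of the 37, and in 3.65% and 1.63% of all promoters. A match is only a run of letters in this window, and the absence of one says nothing of sites elsewhere.

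**Figure D4:**
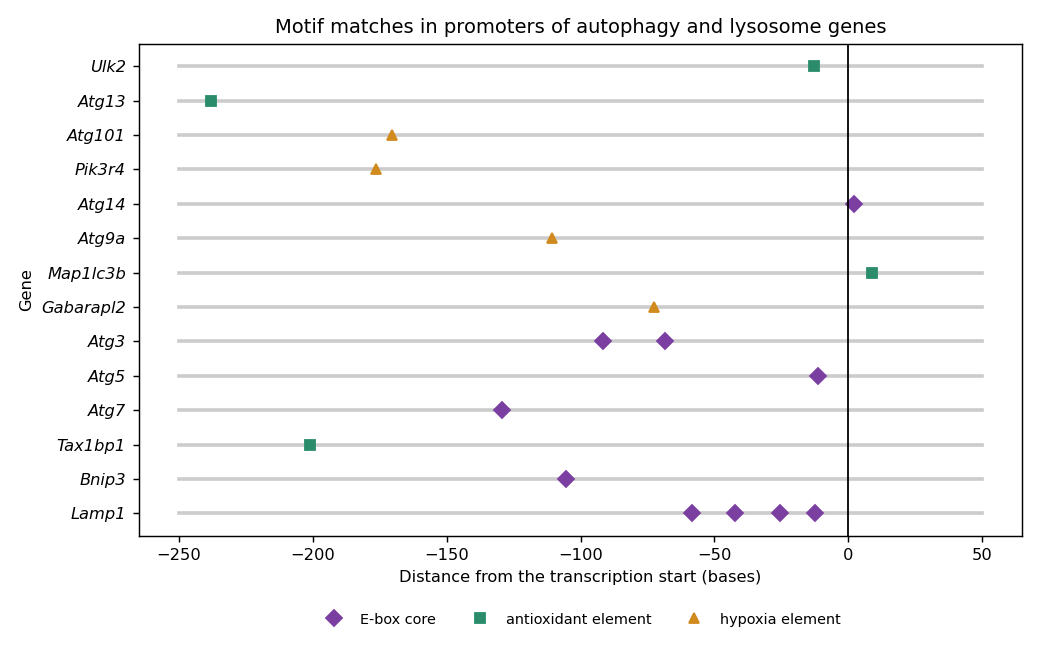
Distance of each motif match from the transcription start, in bases, in the promoters of the 14 genes with any match; grey lines are the searched windows. Lamp1 has 4 E-box cores and Atg3 has 2, while Atg5, Atg7, Atg14 and Bnip3 have 1 each.

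Further genes of the pathway were read from 9 lists with 170 tested genes in all. Their median log2 fold change was 0.12 (0.01 over all genes), and 108 of 170 were positive (63.5%, against 51.3% of all genes). At an unadjusted p under 0.05 there were 27 higher genes (15.9%, against 8.70% of all genes) and 10 lower genes (8.63% of all genes). With edgeR 0 passed the adjusted threshold. DESeq2 called 7 higher (4.12%, against 2.08% of all genes) and 1 lower (1.86% of all genes). Without double knockout library 1 the edgeR count was 32 (18.8%, against 17.1% of all genes), and without library 2 it was 18 (10.5%, against 8.24% of all genes), so both shares were near the background. Values followed by an SE in the next paragraphs are log2 fold changes.

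Upstream of the ULK1 complex, nutrient-sensing genes were mixed, with 18 of 30 positive and a median of 0.10. Mtor, the kinase of mTORC1, was read at 112 and 96.8 CPM in wild type, against 79.7 and 83.3 CPM in double knockout (log2 fold change -0.36, SE 0.12; edgeR adjusted p = 0.220). Deptor, an inhibitor of mTOR, stood at 8.18 and 8.48 CPM in the wild type pair and 15.7 and 14.3 CPM in the double knockout pair (0.85, SE 0.16; edgeR adjusted p = 0.136; DESeq2 adjusted p = 0.0121). Neither gene's groups overlapped. Flcn, folliculin, had 76.4 and 68.5 CPM in the wild type libraries, then 88.0 and 105 CPM in double knockout (0.41, SE 0.13), also without overlap.

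Among further genes of autophagosome formation, 11 of 15 were positive with a median of 0.06. Wdr45, a PI3P-binding relative of Wipi2 on the X chromosome, had 14.1 and 15.9 CPM in the wild type hearts and 25.2 and 33.8 CPM in the double knockouts (0.97, SE 0.18; DESeq2 adjusted p = 0.00343). Its relative Wdr45b had 74.1 and 75.9 CPM in the wild type libraries, then 88.3 and 89.5 CPM in double knockout (0.24, SE 0.10). Mtmr14, a PI3P phosphatase that opposes the PI3-kinase complex, was read at 17.2 and 19.7 CPM in wild type, against 25.2 and 52.7 CPM in double knockout (1.07, SE 0.37; DESeq2 adjusted p = 0.0462), with double knockout library 2 again the highest. Without that library its log2 fold change was 0.45. Both DESeq2 calls in this list were Wdr45 and Mtmr14, where DESeq2 called 2.08% of all genes higher. For these 2, edgeR gave adjusted p = 0.140 for Wdr45 and 0.254 for Mtmr14.

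Further receptors were split, with 7 of 13 positive and a median of 0.01. Calcoco1, a receptor for the endoplasmic reticulum and Golgi, stood at 120 and 143 CPM in the wild type pair and 221 and 275 CPM in the double knockout pair. Its groups were far apart, and its log2 fold change was 0.92 (SE 0.15; edgeR adjusted p = 0.126; DESeq2 adjusted p = 3.42e-04). Ncoa4, the ferritin receptor, had 8.25 and 8.24 CPM in the wild type hearts and 3.21 and 4.96 CPM in the double knockouts (-1.03, SE 0.26; DESeq2 adjusted p = 0.0498). Its change is uncertain, because the pseudogene Gm6768 is 99.9% identical to it over 1878 bases. Gm6768 had 695, 623, 635 and 442 counts in wild type libraries 1 and 2 and double knockout libraries 1 and 2. The split of reads between the 2 genes is not known. Phb2, an inner mitochondrial membrane receptor, had 118 and 108 CPM in the wild type libraries, then 95.9 and 86.6 CPM in double knockout (-0.30, SE 0.11).

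Downstream, most lysosomal hydrolases lay slightly higher. Of 46 hydrolases and cofactors 34 were positive (73.9%, against 51.3% of all genes), with a median of 0.17. At an unadjusted p under 0.05, 13 were higher (28.3%, against 8.70% of all genes) and 3 lower (8.63% of all genes). DESeq2 called 3 higher, the cysteine proteases Ctsf, Ctsl and Ctso, where it called 2.08% of all genes higher. Ctso was read at 30.03 and 34.1 CPM in wild type, against 49.7 and 53.8 CPM in double knockout (0.69, SE 0.12; edgeR adjusted p = 0.135; DESeq2 adjusted p = 0.00824). Ctsf stood at 19.8 and 22.9 CPM in the wild type pair and 34.2 and 31.9 CPM in the double knockout pair (0.63, SE 0.14; DESeq2 adjusted p = 0.0389). Arsb, arylsulfatase B, was lower, at 10.1 CPM in each wild type library and at 6.14 and 5.44 CPM in double knockout (-0.80, SE 0.18). Ctsl, chosen after its values were seen, had 180.1 and 194 CPM in the wild type hearts and 275 and 444 CPM in the double knockouts (0.94, SE 0.23; DESeq2 adjusted p = 0.00862).

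Subunits of the V-ATPase, the proton pump that acidifies the lysosome, were even, with 9 of 17 positive and a median of 0.06. Its subunit Atp6v0a2 had 38.7 and 40.6 CPM in the wild type libraries, then 32.7 and 30.04 CPM in double knockout (-0.34, SE 0.12). Lysosomal membrane genes had 10 of 16 positive and a median of 0.15. For 8 of the 16 the double knockout pair was above the wild type pair (50%, against 25.8% of all genes). For 4 it was below (25.2% of all genes). In this list Slc38a9, an amino acid sensor for mTORC1, had 26.3 and 31.6 CPM in the wild type libraries, then 37.2 and 38.7 CPM in double knockout (0.39, SE 0.14). Fusion genes had 9 of 13 positive and a median of 0.13. The double knockout pair was above the wild type pair for 6 of them (46.2%, against 25.8% of all genes). It was below for 3 (25.2% of all genes). Vps11 of the tethering complexes had 36.2 and 37.1 CPM in the wild type libraries, then 48.5 and 51.2 CPM in double knockout (0.44, SE 0.11). The SNARE Vamp8 had 28.1 and 29.1 CPM, then 36.0 and 36.9 CPM (0.35, SE 0.12). Of 6 tested genes of the TFEB family and its control 4 were positive (median 0.03), and Zkscan3, a repressor of autophagy genes, was read at 156 and 149.8 CPM in wild type, against 106 and 123 CPM in double knockout (-0.42, SE 0.12; edgeR adjusted p = 0.185). In these 4 lists edgeR and DESeq2 called 0 genes, and 3 higher and 2 lower reached an unadjusted p under 0.05. Over all genes 8.70% were higher and 8.63% lower at that threshold. The higher share was 15.4% of fusion genes, 6.25% of lysosomal membrane genes and 0% of the V-ATPase and TFEB lists. Hypoxia-responsive genes, listed because Bnip3 belongs to that response, had 6 of 14 positive and a median of -0.10. At an unadjusted p under 0.05 there were 3 higher genes (21.4%, against 8.70% of all genes) and 1 lower gene (8.63% of all genes). The lower gene was P4ha1, a prolyl hydroxylase of collagen (-0.29, SE 0.12), chosen after its values were seen. Kdm3a, a histone demethylase, had 89.1 and 88.1 CPM in the wild type libraries, then 114 and 148 CPM in double knockout (0.56, SE 0.15, or 0.37 without library 2). Ndrg1 had 17.6 and 16.6 CPM, then 21.8 and 35.3 CPM (0.73, SE 0.24, or 0.35 without library 2). Adm, adrenomedullin, had 9.34 and 10.2 CPM, then 22.1 and 11.99 CPM (0.81, SE 0.30, or 0.29 without library 1). None passed the adjusted threshold, and a different double knockout library was the higher for Adm than for Kdm3a and Ndrg1. On chromosome 15 Ndrg1, Calcoco1 and Deptor lie 14, 21.5 and 25.8 Mb from Mrtfa.

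**Figure D5:**
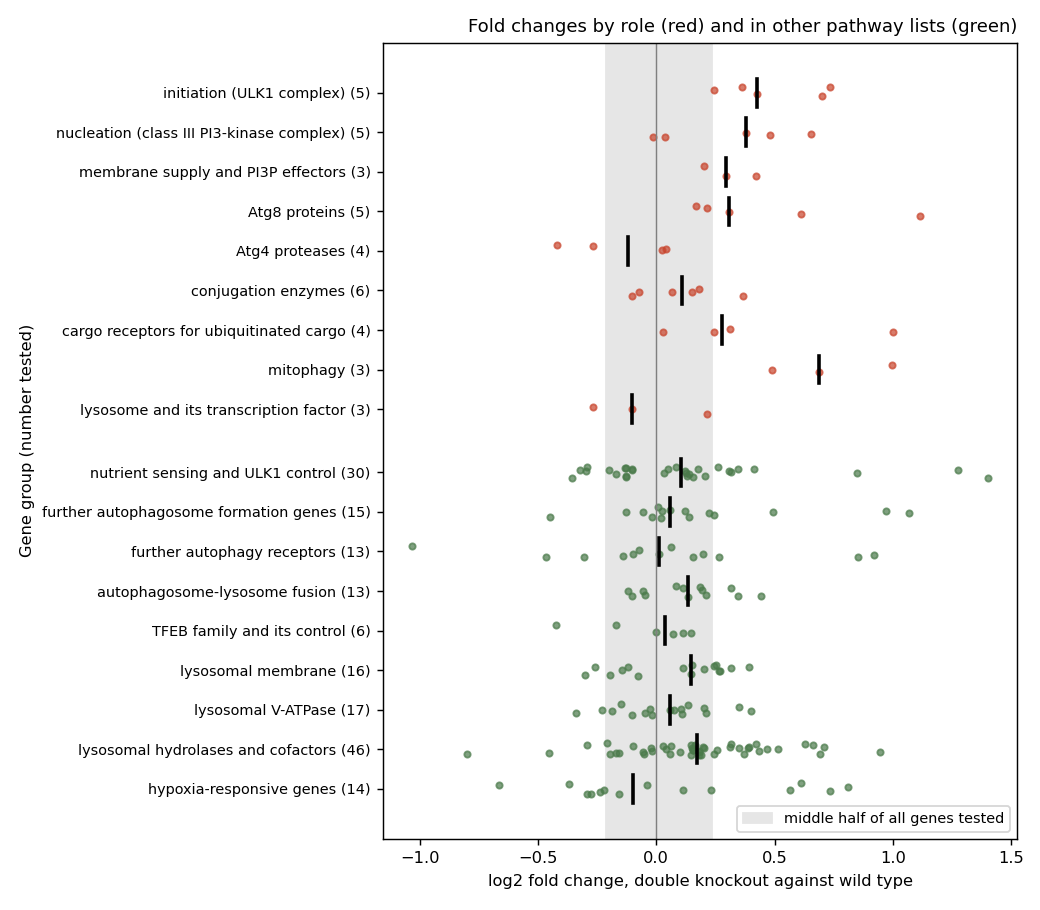
Log2 fold change of each gene, double knockout against wild type, by role for the 38 genes (red) and in the 9 further lists (green), with the median of each group as a black bar; vertical scatter within a group has no meaning. The grey band, -0.21 to 0.24, holds the middle part of all genes tested, and the medians of 6 roles lie above it while those of the further lists lie inside it.

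Markers of other cell types were read beside these genes, and in bulk tissue fewer cells of a type and less RNA per cell cannot be told apart. Of 13 macrophage markers 9 were positive (median 0.33), and they summed to 113 and 115 CPM in wild type and to 145 and 128 CPM in double knockout, with none of the 13 at 0. The double knockout libraries differed here. In library 1, 11 of the 13 were above both wild type libraries and 0 below. Of all 16009 genes tested, 6527 were above and 6262 below in that library. In library 2, 7 of the 13 were above and 6 below. Of all genes, 6656 were above and 6655 below in library 2. Erythroid markers, relevant because red cell precursors use Bnip3l to clear mitochondria, had 4 of 9 tested positive (median -0.22) and summed to 1306 and 1041 CPM in wild type and to 885 and 1128 CPM in double knockout. Hbb-bs and Tfrc were the largest parts of these sums. Hbb-bs had 586 and 415 CPM, then 373 and 665 CPM, and Tfrc had 554 and 487 CPM, then 421 and 322 CPM. Of the erythroid markers DESeq2 called 1, Hbb-bt, as lower, where it called 1.86% of all genes lower. Hbb-bt had 42.0 and 26.2 CPM, then 6.45 and 7.77 CPM (log2 fold change -2.27, SE 0.27; DESeq2 adjusted p = 1.99e-11). Cardiomyocyte markers had 3 of 12 positive (median -0.17). Medians were -0.13 for fibroblast, 0.18 for endothelial, -0.65 for smooth muscle and 0.13 for epicardial markers. The smooth muscle markers summed to 3347 and 1870.3 CPM in wild type and to 819 and 781 CPM in double knockout. Acta2 alone had 2962 and 1468 CPM, then 535 and 439 CPM, so these sums mostly follow that gene. Of the 6 smooth muscle markers 5 were negative, and Myocd was at a log2 fold change of 0.10 with overlapping groups. Neutrophil and mast cell markers (7 of 9 tested, median -0.36) summed to 29.4 and 30.8 CPM in wild type and to 33.6 and 10.5 CPM in double knockout. In double knockout library 2 all 7 were below both wild type libraries, as were 6655 of all 16009 genes. Their counts in that library, the one with the lowest total, ran from 0 for Mcpt4 to 77 for Cpa3. Of the brown fat markers 2 of 6 were tested, and their sum was between 25.5 and 51.0 CPM, while the defining gene Ucp1 had at most 1 count in a library. Of the thymus markers 2 of 7 were tested, and their sum was at most 1.29 CPM. The part of these cell types in the levels of the autophagy and lysosome genes was not tested.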

How the data were processed

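RNA was sequenced from postnatal day 0 mouse hearts, with 2 wild type and 2 MRTFA/B double knockout libraries grouped by their titles. The authors deposited raw counts of reads per gene, made with HTSeq on mm10, per the submitters' processing notes, which also name DESeq 1.10.1. The aligner, annotation release, strand setting and handling of reads that match several places are not stated in those notes or the labels. Symbols, positions and exon lengths came from GENCODE M21 (mm10), which matched 42462 of 43346 identifiers, and 0 rows named no gene. Totals ran from 16175259 to 29460641, so 3 counts are worth 0.106 to 0.184 CPM.

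The main test was edgeR 4.0.16 in R 4.3.3 (filterByExpr defaults, TMM, robust quasi-likelihood, no covariate, 4 libraries in 1 fit), with Benjamini-Hochberg adjustment over 16009 genes. DESeq2 1.42.0 gave an adjusted p for 13526 of them. Alternatives were DESeq2, limma-voom (limma 3.58.1), no robust estimation, RLE and upper-quartile factors, scaling without mitochondrial and erythroid genes, no filter, a stricter filter (mean of 50 counts or more, and above 1 CPM throughout 1 group or both), a replicate block and leaving out each library. The tests were tried on simulated data. Values of each library are given for genes with an unadjusted edgeR p under 0.05 or a DESeq2 adjusted p under 0.05 and for the best-known gene of a role, and up to 3 genes of each further list with a mean of at least 5 CPM and the smallest p under 0.05. Those of the remaining autophagy genes were added after they were seen. Near copies were searched with blastn against GENCODE M21 transcripts. The genes and lists were chosen with earlier results of these data known. Map1lc3c and Vamp7 matched no identifier, and Tfec did not pass the filter.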

Additional observations from a re-analysis of the deposited data

How the results depend on the processing

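The number of the 38 genes past an adjusted p of 0.05 was 0 in the edgeR fit, 6 with DESeq2, 11 without a filter, and 0 to 15 with each library left out in turn. For the 170 further pathway genes these numbers were 0, 8, 16 and 0 to 32. Both counts were 0 under the other 7 planned settings. Without a filter 24928 genes entered the fit and 6.07% of them were called. The median log2 fold change of the 38 genes, 0.24 with all libraries and the default settings, ranged from 0.21 to 0.31 with 1 library left out. It stayed within 0.05, the spread of the median between libraries of a group, under all other settings. Over single genes, 731 comparisons with an alternative gave the same call and 81 passed the threshold only under the alternative, while none that passed turned direction; the cause was not tested.

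The labels number the libraries 1 and 2 in both groups but do not say that a number marks a litter or day. With a replicate block 0 of the 38 genes passed and the median was 0.24 (0 of 170 further genes and 2 of all genes). The deviations of same-numbered libraries correlated at r = -0.10 across 16009 genes, which are not independent replicates. With the crossed block, added after seeing the data, 0 of the 38 genes passed and 3 of all genes did. With 2 libraries a group, 1 library can decide a call, and a level at or under 3 counts in a library cannot be told from 0 at this depth.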

Other observations

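Some pathway genes were far higher in double knockout library 2 than in library 1, and these were chosen after their values were seen. Sesn1, encoding sestrin 1, a stress-induced inhibitor of mTORC1, stood at 83.6 and 81.7 CPM in the wild type pair and 112 and 289 CPM in the double knockout pair. Ddit4, encoding REDD1, another stress-induced inhibitor of mTORC1, had 11.8 and 18.3 CPM in the wild type hearts and 19.4 and 60.9 CPM in the double knockouts. Retreg1, a receptor for autophagy of the endoplasmic reticulum, was read at 322 and 255 CPM in wild type, against 309 and 735 CPM in double knockout. Their log2 fold changes were 1.27 (SE 0.45), 1.40 (SE 0.59) and 0.85 (SE 0.43), with edgeR adjusted p of 0.268, 0.321 and 0.386 and DESeq2 adjusted p of 0.319, 0.420 and 0.580. Bnip3l, Atg12, Pik3r4 and Wipi2 were as high in double knockout library 1 as in library 2 or close to it, so the 2 libraries did not differ in the same way for all genes of the pathway.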
